A study of Schizosaccharomyces pombe with 36 samples.

Results

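The comparison concerns fission yeast (Schizosaccharomyces pombe) carrying stn1-226, a temperature-sensitive allele of stn1, grown at 25 °C and at 34 °C. It rests on 8 of the 36 libraries of the series, chosen by genotype and temperature alone: 2 libraries for each polymerase at each temperature. The assay was polymerase usage sequencing, in which DNA is cleaved with alkali at ribonucleotides left by a mutant replicative polymerase, so that the ends of the fragments mark the strand that polymerase made. The Pol delta strain (MV1332) carried cdc6-I591G and the Pol epsilon strain (MV1333) carried cdc20-M630F, both with the rnh201 deletion marked hphNT1, the polymerase allele between loxp and loxm3, leu1-32 and ura4-. The 8 wild type libraries at the same temperatures were used as the control for temperature itself, and came from strains 856 (Pol delta, cdc6-L591G) and 655 (Pol epsilon, cdc20-M630F), h-, with rnh201-RED:kan, ade6-704, leu1-32 and ura4-D18. A comparison of stn1-226 with wild type therefore also compares these backgrounds. All cultures were in log phase in YE medium. Each condition and polymerase was 1 strain with 2 libraries, and nothing in the labels says that the libraries came from separate cultures, so p-values measure only the spread between these samples, which may be technical.

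Stn1 and its partner Ten1 bind the single-stranded overhang of the telomere and are thought to bring in DNA polymerase alpha and primase, so that the strand opposite the overhang can be filled in after telomerase has extended it. Stn1-Ten1 has also been linked to replication of the chromatin next to the telomere, the subtelomere, where origins fire late under the control of Taz1 and Rif1. At a fork, Pol epsilon copies mainly the leading and Pol delta mainly the lagging strand, so the strand in which each leaves its ribonucleotides tells which way the fork moved. Fork direction here is the log2 ratio, within a library, of ends left by outward forks (moving to the nearer chromosome end) to ends left by inward forks. A positive value means that more ends came from outward than from inward forks.

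The deposited values were counts of ends per 300 bp bin. The 8 stn1-226 libraries held 5801492 to 17996556 ends, with a median of 116 to 386 ends per bin, and the wild type libraries held 8092162 to 24241937. Coverage of rnh201 was low in these rnh201 deletion strains, with 25 °C libraries at 0.103 ± 0.018 and 34 °C libraries at 0.0925 ± 0.0465 of the median bin (mean ± SD, n = 4 each), while taz1 and rif1 were at 1.04 ± 0.0765 and 1.21 ± 0.146 at 25 °C. The stn1-226 allele is not a deletion, so coverage of stn1 (1.28 ± 0.202 and 1.06 ± 0.151) checks nothing. Coverage of ura4 ran from 0.406 to 1.65 in stn1-226. In wild type, labelled ura4-D18, the replicate 2 libraries had 1.27 (Pol delta) and 0.295 (Pol epsilon) at 25 °C, against that label. At 34 °C replicate 2 had 0.103 and 0.035, while the wild type replicate 1 libraries had 0 to 0.00245. The fits also held 8 rif1 deletion libraries and 8 libraries labelled stn1-226 rif1 deletion, at the same temperatures. Both sets entered the shared estimate of spread, the filter on mean ends and the search for the sites described below. Neither set was a side of a comparison. In the libraries labelled stn1-226 rif1 deletion, rif1 coverage goes against that label. It was 1.1 ± 0.122 at 25 °C and 1.09 ± 0.0835 at 34 °C (SD, n = 4 each). Results that change without the 8 libraries labelled stn1-226 rif1 deletion are given with both values. That alternative was added after seeing the data and kept the same sites. The libraries also differed within groups. In stn1-226 Pol delta, base content explained 30.7% of the variance of ends between bins in 25 °C replicate 2. It explained 11.9% in 34 °C replicate 1, and only 1.87% and 0.681% in 25 °C replicate 1 and 34 °C replicate 2. For stn1-226 Pol epsilon the values in the same order were 20.1%, 13.9%, 4.31% and 1.44%. The strand signal was also of unequal strength: the SD over bins of the log2 ratio between the strands was 1.48 and 1.73 in the 25 °C Pol delta libraries, and 1.08 and 0.90 in those at 34 °C. Libraries alike in base content are called a type here, and 25 °C replicate 1 and 34 °C replicate 2 share one, so their values are also compared alone below. In stn1-226, the type of 25 °C replicate 2 occurred only at 25 °C, in both polymerases. The type of 34 °C replicate 1 occurred only at 34 °C, so type and temperature partly go together.

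Toward the ends of chromosomes I and II, forks labelled by Pol delta ran outward less often at 34 °C than at 25 °C. The chromosomes were divided into blocks of 50 kb counted from each end, 255 in all. In 5 of the 8 end blocks, those less than 100 kb from these ends, the Pol delta fork direction fell by 0.34 to 0.70 on the log2 scale with an adjusted p under 0.05 (edgeR quasi-likelihood test, Benjamini-Hochberg over all 255 blocks). Over the whole genome 10.2% of blocks fell by the same criterion, and 14.1% (36 blocks) changed in either direction. These shares count blocks of either sign at 25 °C, while the 5 end blocks were all positive at 25 °C. Wild type Pol delta had 0 calls of 255 (edgeR; 5 at an unadjusted p under 0.05), and its values moved by -0.09 to 0.08 in the same 5 blocks.

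The largest fall at an end was in the second block of the right end of chromosome I (5479201 to 5529000 in assembly ASM294v3), which holds 17 protein-coding genes, among them cat1, an amino acid transporter gene, and mel1, an alpha-galactosidase gene. Its Pol delta fork direction was 0.86 and 1.02 at 25 °C (replicates 1 and 2) and 0.21 and 0.28 at 34 °C. The temperatures did not overlap. The change was -0.70 (SE 0.129, edgeR adjusted p = 0.0018). As a share, 65.8% ± 1.7 of the Pol delta ends there came from outward forks at 25 °C and 54.3% ± 0.85 at 34 °C (mean ± SD, n = 2 each). Wild type values were 1.21 and 0.52 at 25 °C and 1.01 and 0.86 at 34 °C, and overlapped.

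The first block of the left end of chromosome I (1 to 50100), which begins at tlh1, a RecQ-like helicase gene of the telomere-linked family, behaved in the same way. Pol delta fork direction was 0.71 and 0.88 at 25 °C and 0.41 and 0.24 at 34 °C, with no overlap. It fell by 0.46 (SE 0.0783, edgeR adjusted p = 0.0018), while wild type was at 0.62 and 0.62 and then at 0.71 and 0.58. The share of Pol delta ends from outward forks was 63.4% ± 2.0 at 25 °C and 55.7% ± 2.1 at 34 °C (n = 2 each).

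On chromosome II, 3 of the 4 blocks passed the test. In the first block of the left end (1 to 50100, with the glucose transporter gene ght7 among its 16 protein-coding genes), fork direction was 0.25 and 0.38 at 25 °C and -0.03 and -0.01 at 34 °C. Ends from outward forks thus outnumbered those from inward forks in both 25 °C libraries and in neither 34 °C library. The change was -0.34 (SE 0.0624, edgeR adjusted p = 0.0018). In the second block of that end (50101 to 99900), values were 0.82 and 0.86 at 25 °C and 0.35 and 0.34 at 34 °C, a change of -0.49 (SE 0.122, edgeR adjusted p = 0.0149). Neither block's groups overlapped. The second block of the right end (4439701 to 4489800) holds pho84 and pho1, a phosphate transporter gene and an acid phosphatase gene, and the galactose genes gal7, gal10 and gal1. Its values were 0.72 and 0.98 at 25 °C and 0.41 and 0.25 at 34 °C, a change of -0.52 (SE 0.0921, edgeR adjusted p = 0.0018).

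The other 3 blocks of these ends did not pass. The terminal block of the right end of chromosome I was at 0.14 and 0.17 at 25 °C and at -0.09 and 0.01 at 34 °C, without overlap (-0.20, edgeR adjusted p = 0.176). At the terminal block of the right end of chromosome II, where tlh2 lies, the libraries at one temperature differed more than the temperatures did (0.91 and 0.29, then 0.70 and 0.30). In the second block of the left end of chromosome I the 25 °C replicates lay at 0.58 and 0.04, on both sides of the 34 °C values of 0.14 and 0.22. Altogether 6 of the 8 end blocks had both 34 °C libraries below both 25 °C libraries, against 31% of all blocks, whatever their sign at 25 °C. In wild type it was 0 of 8, against 15.3%. At the ends of chromosome III, which lie beside the ribosomal DNA, the 4 Pol delta changes were -0.09 to 0.50 and none passed.

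**Figure D1:**
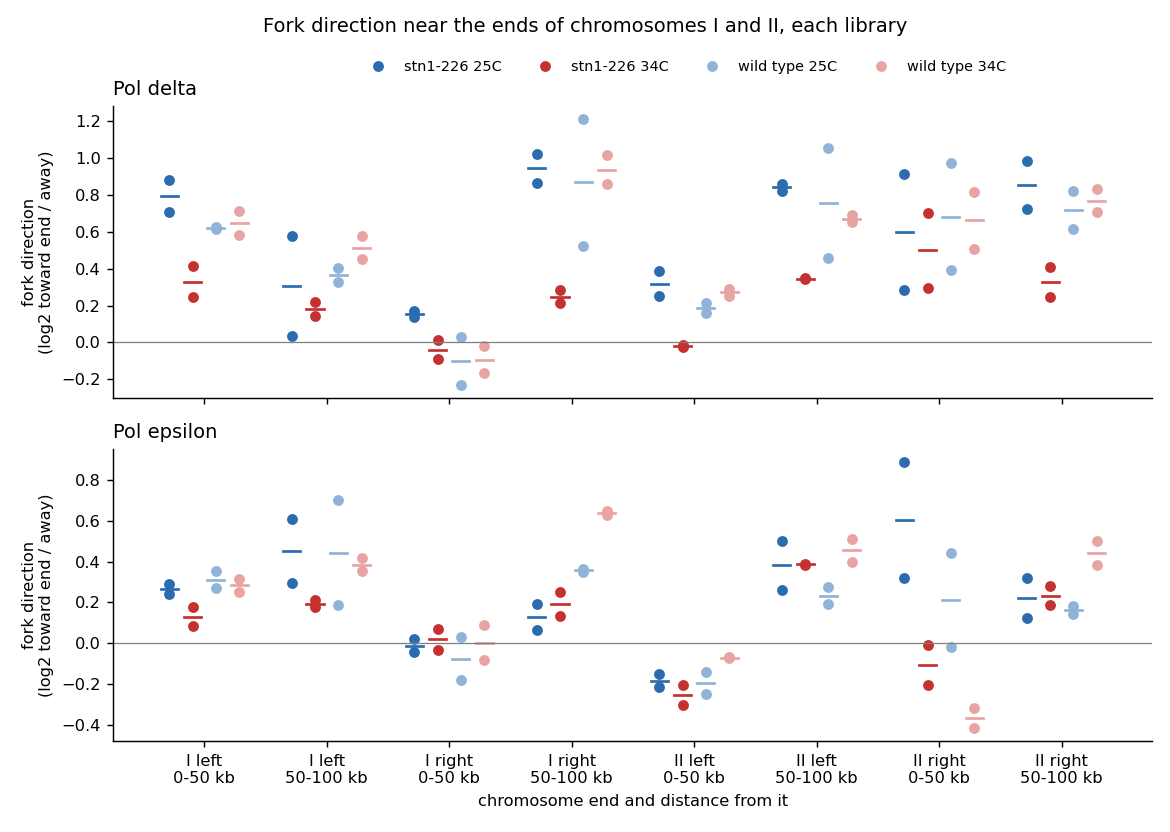
Fork direction (vertical axis, log2 of ends from outward over inward forks) in each 50 kb end block of chromosomes I and II (horizontal axis), with Pol delta above and Pol epsilon below; each point is 1 library of stn1-226 or wild type at 25 °C or 34 °C. For Pol delta, both stn1-226 34 °C libraries lie below both 25 °C libraries in 6 of the 8 blocks, and wild type libraries do so in 0 of 8.

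The difference from wild type was tested as an interaction of strain and temperature. For Pol delta 4 blocks of 255 (1.57%) passed, and all 4 were end blocks: the right second block of chromosome I (-0.77, SE 0.182, edgeR adjusted p = 0.028), the right second block of chromosome II (-0.57, SE 0.130, edgeR adjusted p = 0.0232), the left terminal block of chromosome I (-0.49, SE 0.111, edgeR adjusted p = 0.0232) and the left terminal block of chromosome II (-0.42, SE 0.0881, edgeR adjusted p = 0.0232). Among the end blocks, the number of interaction calls was 0 without stn1-226 Pol delta 25 °C replicate 2 and 0 without 34 °C replicate 2. It was 0 without the wild type 25 °C replicate 2 pair, and 2 without stn1-226 Pol delta 34 °C replicate 1. It was also 0 without the libraries labelled stn1-226 rif1 deletion, with adjusted p of 0.0743 to 0.0978 (edgeR) at these 4 blocks. Within stn1-226, the left terminal block of chromosome I and the second blocks of the right ends of I and II passed whichever 1 stn1-226 library was left out, with adjusted p of 0.0011 to 0.0423. All 5 blocks passed without the libraries labelled stn1-226 rif1 deletion, among 22 calls in all. The left terminal block of chromosome II was lost without 25 °C replicate 2 (-0.27, edgeR adjusted p = 0.0511), and its neighbour was lost without 25 °C replicate 2, 34 °C replicate 1 or 34 °C replicate 2. In a fit of the compared groups alone, with 4 residual degrees of freedom, the right second block of chromosome I was the 1 block that passed (edgeR adjusted p = 0.0205).

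For Pol epsilon, no end block passed. Its fork direction at the right second block of chromosome I was 0.19 and 0.07 at 25 °C and 0.25 and 0.13 at 34 °C, so the temperatures overlapped. At the left terminal block of chromosome I it was 0.24 and 0.29 and then 0.18 and 0.08, a change of -0.14 (edgeR adjusted p = 0.87). None of the 8 end blocks passed, against 0.784% of all blocks (2 of 255, both lower), and 3 of the 8 had both 34 °C libraries below both at 25 °C, against 18.4%. The direct test of the Pol delta change against the Pol epsilon change gave 0 calls among 255 blocks (edgeR; 54 at an unadjusted p under 0.05, smallest adjusted p = 0.0711), so the polymerases are not shown to differ. Averaged over both polymerases, 14 blocks passed (5.49%), 12 of them lower (4.71%), and 4 of those 12 were end blocks: -0.30 and -0.20 at the left terminal blocks of I and II, and -0.32 and -0.26 at the second blocks of the right ends. Without the libraries labelled stn1-226 rif1 deletion, 1 block passed in all, the left terminal block of I (edgeR adjusted p = 0.0291). Without Pol delta 34 °C replicate 2, 0 of these 4 still passed, and 1 passed without any of Pol delta 25 °C replicate 2, Pol delta 34 °C replicate 1, Pol epsilon 25 °C replicate 1 or Pol epsilon 34 °C replicate 1.

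Beyond 100 kb from the chromosome ends, the median change was close to that of all blocks. Over the 4 ends of I and II, the median Pol delta change was -0.27 in the first 50 kb, -0.51 from 50 to 100 kb, -0.04 from 100 to 150 kb and 0.04 from 150 to 200 kb, beside -0.03 over all 255 blocks. In wild type these medians were 0.02, 0.06, 0.08 and -0.02. In steps of 10 kb, both 34 °C libraries lay below both 25 °C libraries at 7 of 10 distances within 100 kb and at 2 of 10 distances from 100 to 200 kb; wild type had 0 and 2. The widest gap lay 90 to 100 kb from the end, where the mean fork direction was 1.41 at 25 °C and 0.35 at 34 °C, and in wild type it was 1.24 and 0.90. At 25 °C the Pol delta means of the mutant ran from -0.02 to 1.41 within 100 kb. They ran from -0.78 to 0.35 from 100 to 200 kb. A change toward 0 would thus be mostly a fall within 100 kb. Beyond 100 kb it would be a rise at some distances and a fall at others, and could cancel in a median. Whether the falls end near 100 kb, apart from a change toward 0, was not tested.

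**Figure D2:**
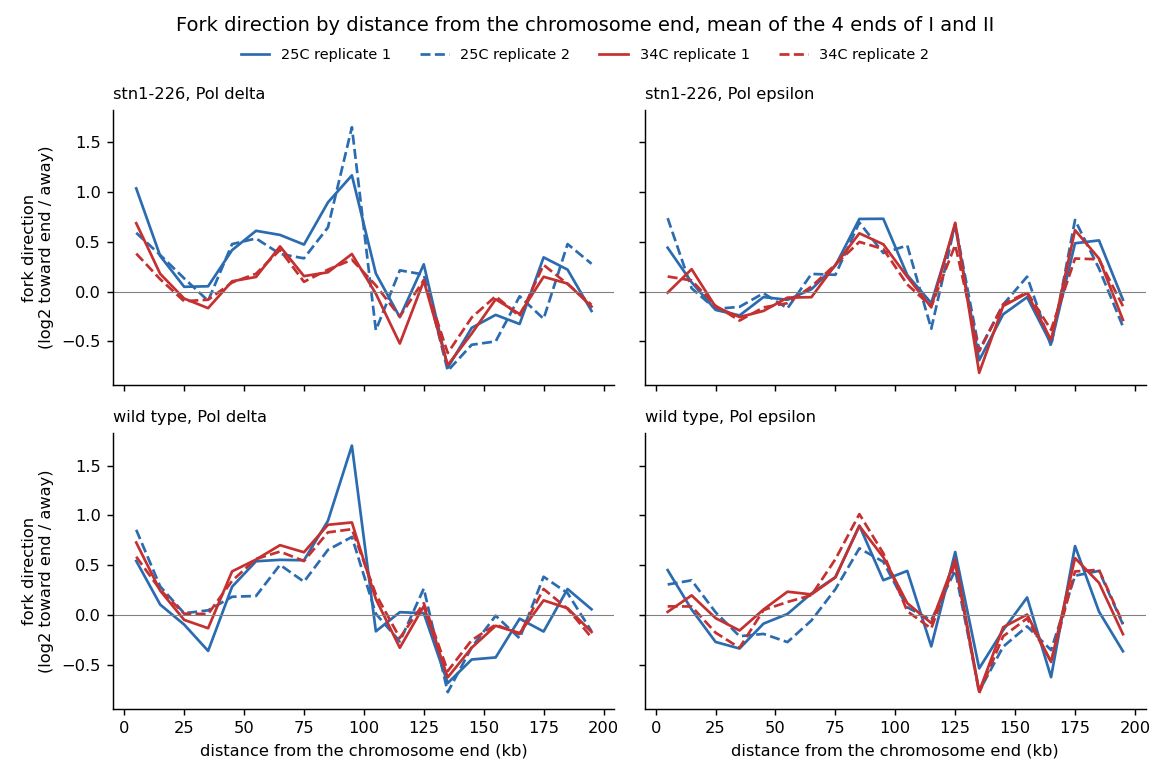
Mean fork direction over the 4 ends of chromosomes I and II (vertical axis, log2) against distance from the end in kb (horizontal axis), with 1 line per library; rows are strains and columns are polymerases. In the stn1-226 Pol delta panel both 34 °C lines lie below both 25 °C lines at 7 of 10 distances within 100 kb.

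The Pol delta strand signal of stn1-226 was weaker at 34 °C over the whole genome as well. Fork direction came nearer to 0 at 34 °C in 196 of 255 blocks (76.9%) for stn1-226 Pol delta, in 152 (59.6%) for wild type Pol delta and in 148 (58.0%) for stn1-226 Pol epsilon. The SD over blocks was 0.51 and 0.62 in the 25 °C Pol delta libraries and 0.39 and 0.32 at 34 °C. The slope of the 34 °C on the 25 °C Pol delta values was 0.585 in stn1-226 and 0.857 in wild type. Its part in the falls of the end blocks, all positive at 25 °C, was not tested by blocks of like value. When each library's values were divided by their own spread, an alternative added after seeing the data, 3 blocks passed for Pol delta (limma), among them the right second block of chromosome I (-0.41, limma adjusted p = 0.0015) and the left terminal block of chromosome II (-0.26, limma adjusted p = 0.0069). The left terminal block of chromosome I (-0.21, limma adjusted p = 0.16), the second block of the right end of II (-0.25, limma adjusted p = 0.081) and the left second block of II (-0.22, limma adjusted p = 0.16) kept their direction but no longer passed. Between 25 °C replicate 1 and 34 °C replicate 2, the libraries of one type, the 5 Pol delta changes were -0.27 to -0.58 and the Pol epsilon changes in the same blocks were -0.04 to -0.16. These 2 Pol delta libraries are alike in base content but not in strand signal, with an SD over blocks of 0.51 and 0.32. The falls and the weaker signal cannot be told apart in this pair.

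Away from the ends, Pol delta fork direction changed both ways, and the 10 blocks that rose (3.92% of all) all lay outside the end blocks. The largest rises were at the blocks nearest ric8 (0.62; chromosome II, 2639701 to 2689800), mns1 (0.57), shr3 (0.55), spn1, a septin gene (0.42), and SPBC12D12.05C (0.32). The largest falls apart from the end block described above were nearest arp42, which encodes an actin-related protein of chromatin remodelling complexes (-0.76, edgeR adjusted p = 0.0091), cwf11, a splicing factor gene (-0.64), def1 (-0.58) and rad17, which encodes the checkpoint clamp loader (-0.56). For Pol epsilon the 2 calls were nearest utp23 (-0.27; chromosome III, 1953001 to 2002800) and pwp1 (-0.25), both ribosome biogenesis genes. Averaged over both polymerases, the blocks nearest shk2 and myo1 rose by 0.18 and 0.17, while those nearest cwf11, ssn6 and pdr16 changed by -0.35, -0.33 and -0.27. None of the blocks named in this paragraph passed the interaction with wild type. The count of Pol delta calls was 86 without 25 °C replicate 1, 7 without 25 °C replicate 2, 5 without 34 °C replicate 1 and 11 without 34 °C replicate 2.

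A single value per library, fork direction summed over the terminal 50 kb of the 4 ends of I and II, gave the same direction in both polymerases. For Pol delta it was 0.56 and 0.45 at 25 °C and 0.31 and 0.17 at 34 °C. For Pol epsilon it was 0.14 and 0.33 at 25 °C and -0.07 and -0.03 at 34 °C. In each polymerase both 34 °C libraries were below both 25 °C libraries. In wild type this was so for Pol epsilon as well, at 0.14 and 0.05 and then -0.08 and -0.10, a difference of -0.19 beside -0.29 in stn1-226, but not for Pol delta, with differences of 0.02 and -0.26. The difference was -0.27, with a two-sided exact permutation p of 0.0556, the smallest that the 36 arrangements within polymerase allow, so this design could not reach 0.05. In wild type the difference was -0.09 (exact permutation p = 0.333). Leaving out bins above 5 times the median bin or at 0, the stn1-226 difference was -0.13.

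Fewer Pol epsilon ends fell near the chromosome ends at 34 °C, relative to the rest of the genome, and the change passed the test at 2 end blocks, while no end block of I and II passed for Pol delta. Both strands were summed for this measure, and a block level of 1 is the genome mean of the library after its depth was scaled by TMM (edgeR). In all 8 end blocks of chromosomes I and II, both Pol epsilon 34 °C libraries were below both 25 °C libraries, which was so in 23.1% of all 255 blocks; in wild type it was 3 of 8 against 25.1%, and for stn1-226 Pol delta 1 of 8 against 25.1%. Ends per genome mean reflect both DNA content and the ribonucleotides left per length of DNA, and these cannot be told apart here.

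By edgeR, 2 blocks passed for Pol epsilon (0.784%), both lower and both at chromosome ends. The left terminal block of chromosome I, with tlh1, was at 1.27 and 1.27 times the genome mean at 25 °C and at 0.95 and 0.96 at 34 °C. This change was -0.41 on the log2 scale (SE 0.0873, edgeR adjusted p = 0.0265), beside -0.03 in wild type. The second block of the right end of chromosome II, with pho84 and the galactose genes, was at 1.06 and 0.98 at 25 °C and at 0.86 and 0.88 at 34 °C, a change of -0.23 (SE 0.0528, edgeR adjusted p = 0.0342). The terminal block with tlh2 at the right end of II was at 1.63 and 1.89 at 25 °C and at 1.11 and 1.34 at 34 °C, without overlap, but did not pass (-0.53, edgeR adjusted p = 0.178). The other 5 blocks changed by -0.13 to -0.24, with adjusted p of 0.116 to 0.51. Both calls were lost when any 1 of the 4 stn1-226 Pol epsilon libraries was left out, with adjusted p of 0.0646 to 0.412, and under scaling by the median bin (edgeR adjusted p = 0.2435 for both). The interaction with wild type passed in 0 of 255 blocks (edgeR; 4 at an unadjusted p under 0.05).

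The median Pol epsilon change over the 4 ends was -0.33 in the first 50 kb, -0.17 from 50 to 100 kb, -0.08 from 100 to 150 kb and -0.04 from 150 to 200 kb, beside 0.00 over all blocks. In wild type the same medians were -0.01, -0.09, 0.00 and -0.05. In the outermost 10 kb, stn1-226 Pol epsilon averaged 1.99 times the genome mean at 25 °C and 1.31 at 34 °C, a log2 ratio of -0.60, while wild type changed by 0.06 and stn1-226 Pol delta, at 1.57 and 1.61, by 0.04. At all 10 distances of 10 kb within 100 kb, both Pol epsilon 34 °C libraries were below both 25 °C libraries, and wild type had 4 of 10. From 100 to 200 kb it was 4 of 10 and 3 of 10.

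**Figure D3:**
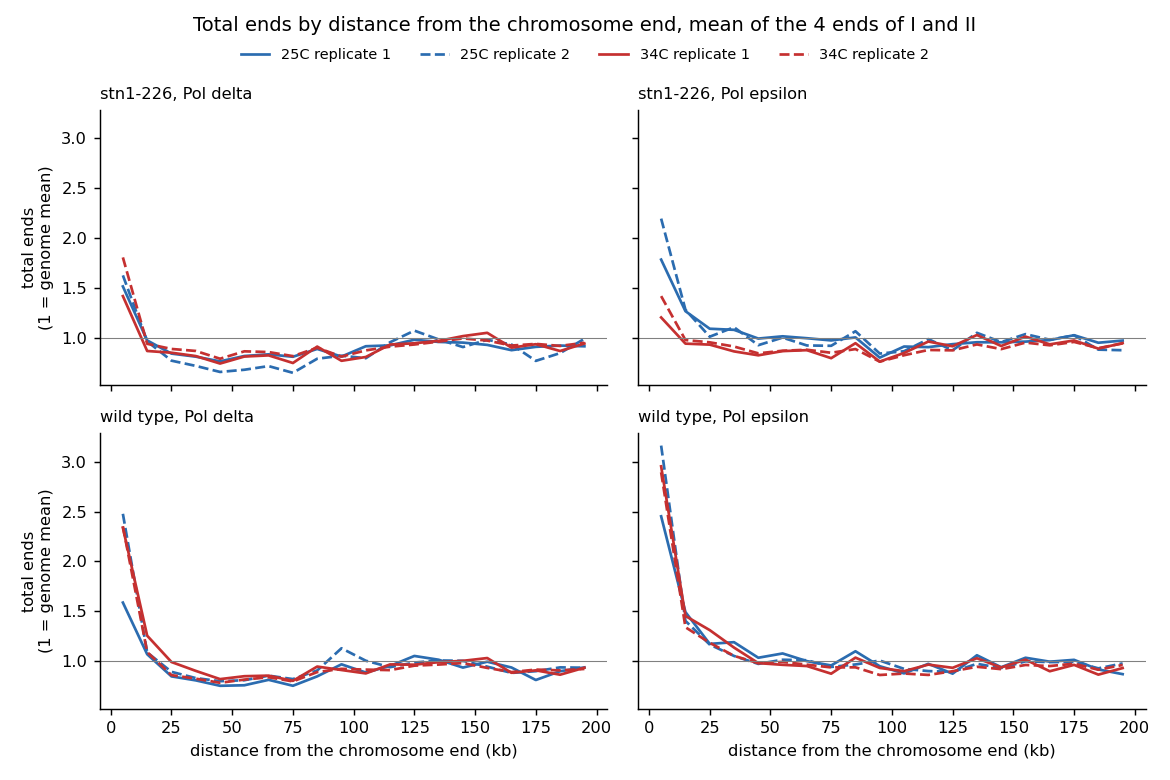
Total ends relative to the genome mean of each library (vertical axis), averaged over the 4 ends of chromosomes I and II, against distance from the end in kb (horizontal axis), with 1 line per library; rows are strains and columns are polymerases. The stn1-226 Pol epsilon lines at 34 °C lie below both 25 °C lines at all 10 distances within 100 kb.

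For Pol delta, 38 blocks passed (14.9%), 15 higher (5.88%) and 23 lower (9.02%), and none of the 8 end blocks of I and II was among them. The named rises were small and nearest tup12, a transcriptional corepressor gene (0.28), nda3, the beta-tubulin gene (0.27), reg1 (0.22), shk2 (0.22) and ssn6, another corepressor gene (0.21). The named falls were nearest rng8 (-0.27), ags1, an alpha-glucan synthase gene (-0.26), kei1 (-0.24), amt3, an ammonium transporter gene (-0.23), and vps60 (-0.21). The count was 79 without Pol delta 25 °C replicate 1, 0 without 25 °C replicate 2, 0 without 34 °C replicate 1 and 2 without 34 °C replicate 2, and 0 with scaling by the median bin. Wild type Pol delta moved in the same direction at every block named here, by 0.06 to 0.14 at the rises and -0.13 to -0.05 at the falls. The Pol delta interaction with wild type passed in 0 of 255 blocks (edgeR). The Pol delta change differed from the Pol epsilon change in 43 blocks (16.9%), with the Pol delta change the higher in 20 (7.84%), among them 3 end blocks: the left terminal block of II (0.39, edgeR adjusted p = 0.0093), the right second block of II (0.34, edgeR adjusted p = 0.0039) and the right terminal block of I (0.31, edgeR adjusted p = 0.049). Averaged over both polymerases, 0 of 255 blocks passed (edgeR; 16 at an unadjusted p under 0.05).

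Summed over the terminal 50 kb of the 4 ends, total ends per median bin were 1.33 and 1.56 for Pol epsilon at 25 °C and 1.07 and 1.12 at 34 °C. For Pol delta they were 1.04 and 1.18 at 25 °C and 1.08 and 1.18 at 34 °C. The temperatures thus separated in Pol epsilon and overlapped in Pol delta. The difference over both polymerases was -0.19 on the log2 scale (two-sided exact permutation p = 0.278), made up of 0.02 for Pol delta and -0.40 for Pol epsilon, and in wild type it was 0.04 (exact permutation p = 0.5).

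In blocks of 10 kb, 2 of 1258 passed in the mean of both polymerases (0.159%), 1 lower at tlh2 (0.0795%) and 1 higher at the mating-type locus mat1 (0.0795%). The tlh2 block (chromosome II, 4519801 to 4529700) was at 1.55 and 1.69 times the genome mean for Pol delta and 1.86 and 1.98 for Pol epsilon at 25 °C, and at 1.26 and 1.32, and 1.18 and 1.25, at 34 °C. All 4 values at 34 °C were below all 4 at 25 °C. The change was -0.50 (SE 0.0971, edgeR adjusted p = 0.0274), and wild type changed by 0.02. The terminal 10 kb with tlh1 on chromosome I showed the same order, with 1.81, 2.26, 2.03 and 2.32 at 25 °C and 1.51, 1.41, 1.33 and 1.26 at 34 °C, but did not pass (-0.61, edgeR adjusted p = 0.126). Since tlh1 and tlh2 are near-identical copies within repeated subtelomeric sequence, reads can be split between them and between copies absent from the assembly.

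The mat1 block (chromosome II, 2109901 to 2119800) contains mat1-Mc, the M-type mating regulator, and mat1 is where an imprint left during replication starts mating-type switching. Its level was 1.54 and 1.57 for Pol delta and 1.99 and 2.08 for Pol epsilon at 25 °C, and 3.29 and 2.90, and 3.18 and 3.61, at 34 °C. Every 34 °C library was above every 25 °C library. It rose by 0.87 (SE 0.171, edgeR adjusted p = 0.0274), wild type changed by 0.29, and the interaction did not pass (0.58, edgeR adjusted p = 0.9995). Both 10 kb calls were lost when any 1 of the 8 stn1-226 libraries was left out, with adjusted p of 0.0630 to 0.277, and so were they with the replicate number as a block (0.0628 for both) and with scaling by the median bin (0.372 for both). Without the libraries labelled stn1-226 rif1 deletion, mat1 passed (edgeR adjusted p = 0.0316) and tlh2 did not (edgeR adjusted p = 0.116).

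The highest levels at 34 °C within the mat1 block were in 5 bins (2115301 to 2116800) next to mat1-Mc (2114482 to 2115027) and over the noncoding gene SPNCRNA.388 (2115592 to 2117167). These bins were chosen after their values were seen, so they are described without a test. In units of the median bin, Pol delta was at 3.35 and 3.70 at 25 °C and at 13.4 and 11 at 34 °C, and Pol epsilon was at 4.11 and 4.21 and then at 7.12 and 9.40. The means over both polymerases were 3.84 ± 0.40 at 25 °C and 10.2 ± 2.6 at 34 °C (SD, n = 4 each), and 2.63 ± 1.65 and 3.86 ± 2.43 in wild type. By library, wild type Pol delta was at 2.53 and 4.96 at 25 °C and at 6.89 and 4.76 at 34 °C. Wild type Pol epsilon was at 1.85 and 1.19 and then at 2.04 and 1.75. The other 28 bins of the block averaged 1.73 ± 0.35 at 25 °C and 2.46 ± 0.59 at 34 °C, and in 5 of them, 1.8 to 3.9 kb to the left, every 34 °C library was also above every 25 °C library. In wild type these 28 bins were at 1.33 ± 0.18 and 1.48 ± 0.22. The rest of the mating-type region was at 2.74 ± 0.61 and 2.86 ± 0.92 in stn1-226, above 1.10 ± 0.17 and 1.04 ± 0.073 in wild type, and the 30 kb on either side was between 0.86 and 1.18 in all 4 conditions. The wild type strains are h-, the mating type of the stn1-226 strains is not used here, and mat1 and the silent mat3 cassette share sequence, so a difference between strains there cannot be told apart from one of mating type.

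**Figure D4:**
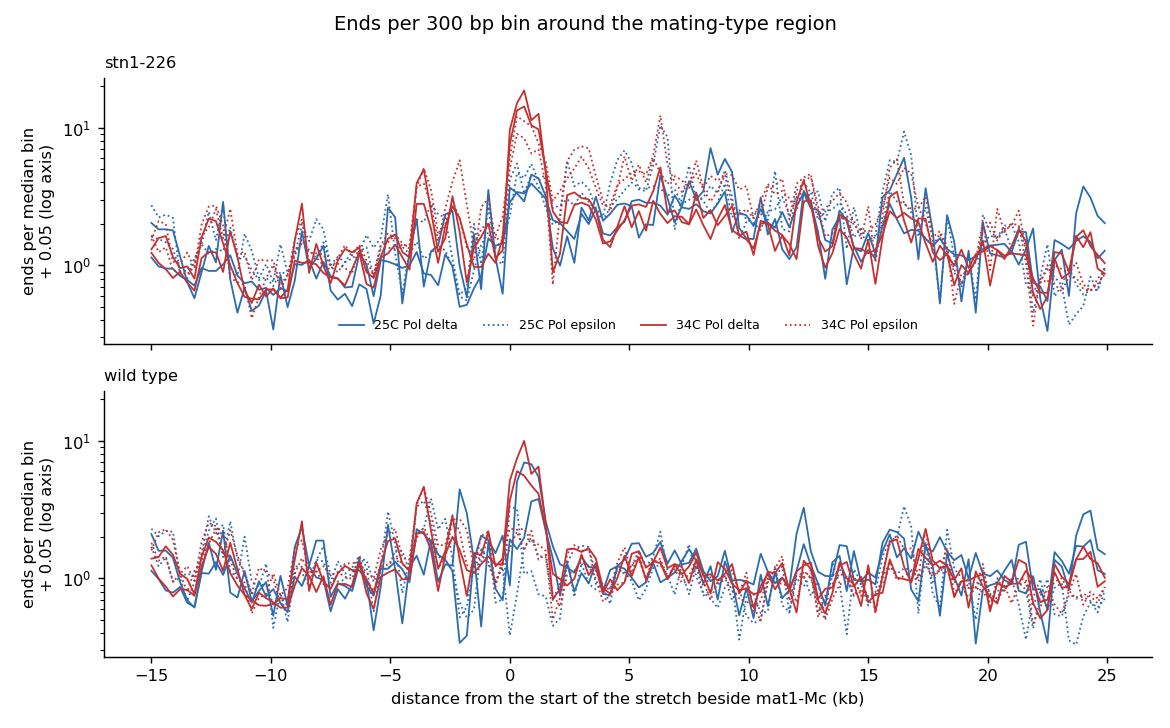
Ends per median bin in each 300 bp bin (vertical axis, log scale, with 0.05 added) against distance in kb from the start of the 5 bins beside mat1-Mc (horizontal axis), with 1 line per library. At 34 °C the 4 stn1-226 libraries average between 7.12 and 13.4 over those 5 bins, and at 25 °C between 3.35 and 4.21.

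In Pol delta alone, 21 blocks of 10 kb passed (1.67%), 6 higher (0.477%) and 15 lower (1.19%). The mat1-Mc block rose most (1.0), followed by ste7 (0.69), utp4 (0.36), the4 (0.34) and reg1 (0.28). Those that fell most were nearest cut1, the separase gene (-0.45), pfa3 (-0.42), alg11 (-0.40), ctr5, a copper transporter gene (-0.39), and urg1 (-0.34). None of these calls held without Pol delta 25 °C replicate 2, without 34 °C replicate 1, with the compared groups alone or with scaling by the median bin (0 of 1258 each). There was 1 call without 34 °C replicate 2, there were 3 without the libraries labelled stn1-226 rif1 deletion, and there were 232 without 25 °C replicate 1. Wild type Pol delta moved in the same direction at every 10 kb block named here, by 0.10 to 0.40 at the rises and -0.28 to -0.18 at the falls. The Pol delta interaction with wild type passed in 0 of 1258 blocks (edgeR). For Pol epsilon 0 of 1258 passed (edgeR; 109 at an unadjusted p under 0.05).

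Steps in strand bias where forks leave a site in both directions were smaller at 34 °C for Pol delta, but the size of the change differed between libraries. A step is the log2 ratio of ends from forks that leave the site to ends from forks that approach it, counted over 10 bins on each side. It was taken at 536 sites, which were local maxima of the mean step over all 32 libraries fitted. The median Pol delta step was 1.40 at 25 °C and 0.91 at 34 °C, and 95 sites passed (17.7%), 93 of them lower (17.4%). In wild type the median went from 1.17 to 0.93, with a smaller step at 34 °C in 428 sites (79.9%) against 433 (80.8%) in stn1-226. The interaction with wild type gave 0 calls of 536 (edgeR; 1 at an unadjusted p under 0.05). For Pol epsilon the median step went the other way, from 1.12 to 1.27 in stn1-226 and from 1.06 to 1.38 in wild type, with 0 sites called in stn1-226 (edgeR; 14 at an unadjusted p under 0.05).

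In 2 called Pol delta sites the step was larger at 34 °C, and each lies inside a region whose fork direction is described above. The site at ubp14 (chromosome II, 2640901), a ubiquitin protease gene in the ric8 block, had steps of 0.34 and -0.61 at 25 °C and 1.30 and 0.88 at 34 °C, a change of 1.23 (SE 0.33, edgeR adjusted p = 0.0443). The site at SPAC869.09 (chromosome I, 5497501) lies 81632 bp from the right end. The end block that holds it had the largest fall of Pol delta fork direction at an end. Steps at this site were 0.28 and -0.35 at 25 °C and 0.73 and 0.56 at 34 °C. The change was 0.68 (edgeR adjusted p = 0.0464) beside 0.03 in wild type. Neither pair of groups overlapped.

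The largest falls were at sites with strong steps at 25 °C. The site nearest wee1, the mitotic inhibitor kinase gene (chromosome III, 719701), had steps of 2.49 and 3.78 at 25 °C and 1.26 and 1.12 at 34 °C. The site nearest pcr1, a stress transcription factor gene, had 2.71 and 4.26 and then 1.66 and 1.33. The site nearest pis1, the phosphatidylinositol synthase gene, had 2.31 and 3.80 and then 1.48 and 0.54. In each the 34 °C steps stayed positive and below both 25 °C steps, and 25 °C replicate 2 was the highest library. The change was -1.85 (SE 0.39, edgeR adjusted p = 0.0174) at SPCC338.18, and the other named falls were SPBP4H10.14C (-2.08), pis1 (-2.04), pcr1 (-1.99), utp24 (-1.95), wee1 (-1.94), crm1, the nuclear export receptor gene (-1.71), pas1 (-1.70), vma5 (-1.70) and spb70 (-1.64). Every call, the 12 named sites included, was lost without Pol delta 25 °C replicate 2, without 34 °C replicate 1 or without 34 °C replicate 2 (0 of 536 each), while 221 sites passed without 25 °C replicate 1. It was also 0 with 5 bins on each side, with the compared groups alone or without the libraries labelled stn1-226 rif1 deletion.

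**Figure D5:**
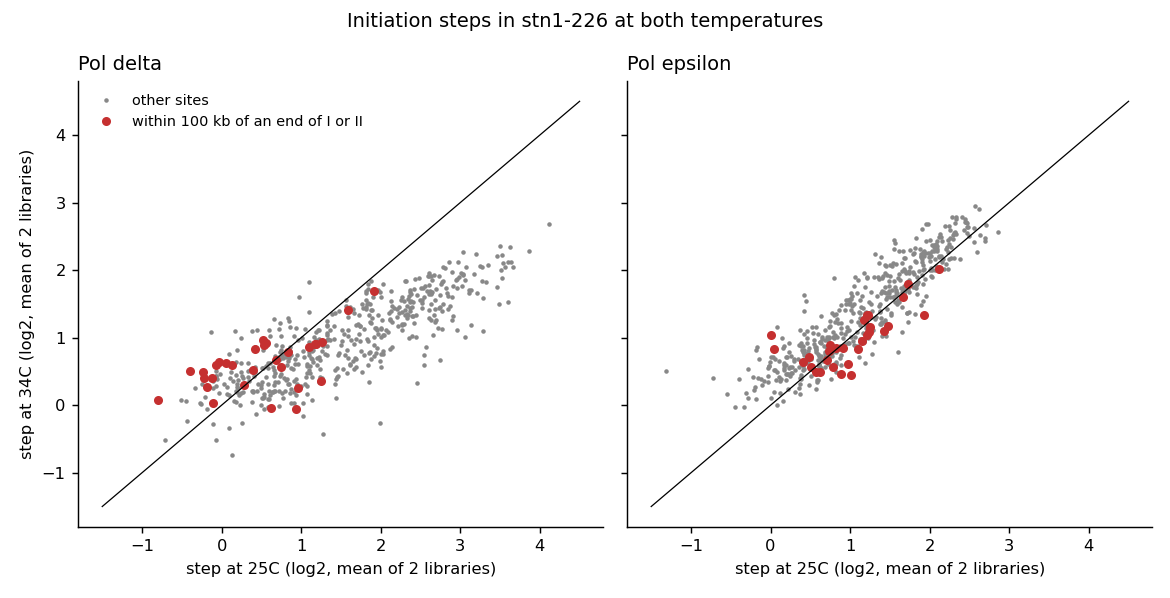
Step at each of the 536 sites at 34 °C (vertical axis, log2, mean of 2 libraries) against 25 °C (horizontal axis, log2, mean of 2 libraries) in stn1-226, for Pol delta and Pol epsilon; the line marks equal steps. Of the Pol delta sites, 433 lie below the line, and the median goes from 1.40 to 0.91.

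From 50 to 100 kb inside the chromosome ends, the median Pol delta change was of the opposite sign to that over all sites. At the 16 sites 50 to 100 kb from the ends of I and II the median change was 0.46, with 11 of 16 larger at 34 °C and 1 called in each direction, whereas the median over all 536 sites was -0.54. At the 14 sites of the terminal 50 kb the median was -0.03, with 6 larger and 8 smaller. In wild type the 50 to 100 kb median was 0.07, with 9 of 16 larger, and for stn1-226 Pol epsilon it was -0.09. At each of the 11 larger sites the lowest library was Pol delta 25 °C replicate 2, and its part in the median was not tested. Of the sites chosen by position, tlh1 (-0.32), tlh2 (-0.31), SPAC750.07C (0.07), SPBC1348.09 (-0.08) and the ars1 origin beside hus5, the SUMO-conjugating enzyme gene (-0.26), none passed in the mean of both polymerases (edgeR adjusted p of 0.60 to 0.90). At hus5 the Pol delta steps were 1.68 and 1.70 at 25 °C and 1.33 and 1.04 at 34 °C, without overlap. At tlh2 the Pol epsilon steps were 0.87 and 1.16 at 25 °C and 0.53 and 0.37 at 34 °C, also without overlap. The lowest p-values for the mean of both polymerases belonged to sites nearest erv2 (-0.71), qcr6 (-0.64) and gef3 (-0.59), and for Pol epsilon to mri1 (0.70), mfm1 (0.54) and nif1 (0.97), none of which passed.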

How the data were processed

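Per the labels' protocols, DNA was purified on columns, cleaved in alkali and size-selected at 300 to 500 bp before sequencing. Reads were aligned with Bowtie2, per the submitters' processing notes; the version used is not given in the sources used here, nor is the build. The authors deposited raw counts of ends per 300 bp bin, 1 file per strand. Bins were placed on assembly ASM294v3 by the number of bins on chromosome III, leaving 41812 bins common to all libraries. Replicate 1 libraries have 8084 bins there, starting 15000 bp inside. Base content was a check and did not place every library. In stn1-226 Pol delta 34 °C replicate 2 it explained 0.681% on chromosome I as placed and 0.698% at another offset. Strand polarity of the other stn1-226 libraries matched that of 34 °C replicate 1 best at a further offset of 0 bins (r of 0.637 to 0.918).

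Counts of 32 libraries (64 files), stn1-226, wild type, rif1 deletion and those labelled stn1-226 rif1 deletion at both temperatures, were fitted together (edgeR 4.0.16, R 4.3.3; TMM for total ends; library as a block for ratios; mean of at least 10 ends; 16 residual degrees of freedom), so that all groups share 1 estimate of spread. The taz1 deletion libraries were not used. Adjusted p-values are Benjamini-Hochberg over all features, called under 0.05. Summed terminal values were tested by exact permutation. Alternatives used DESeq2 1.42.0 and limma 3.58.1.

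Named blocks were the first 2 of each chromosome end and up to 5 in each direction with the largest called change; named sites were up to 10 in each direction, those nearest the ends, tlh1, tlh2 and hus5, and otherwise the 3 with the lowest p. The comparison, lists and tests were chosen with earlier results of these data known. No label says that a replicate number marks a shared batch, although the number goes with the layout of the bins on chromosome III (8084 in replicate 1 and 8177 in replicate 2). Same-numbered deviations correlated at -0.02 (total ends), -0.18 (fork direction) and -0.15 (steps) for Pol delta and at 0.23, 0.02 and 0.18 for Pol epsilon, so the number was not used as a pairing.

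The fits were tested on simulated data with known Pol delta changes before use. For total ends, 3 of 20 changes of 0.25 and 20 of 20 of 0.50 were found, with 3 false calls among 215 unchanged blocks. For fork direction 0 and 13 of 20 were found, and for steps 9 of 100 changes of 0.50 and 48 of 100 of 1.00, with 0 false calls. Small changes could thus be missed. A fixed dispersion was used for each measure, and the unequal strand signal of the libraries was not simulated.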

Additional observations from a re-analysis of the deposited data

Results flagged for a closer look

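The change in fork direction from 25 °C to 34 °C differed between stn1-226 and wild type by an interaction test in 4 end blocks for Pol delta: the right second block of chromosome I (-0.77), the right second block of chromosome II (-0.57), the left terminal block of chromosome I (-0.49) and the left terminal block of chromosome II (-0.42). For the mean of both polymerases the same test passed in 2 blocks, the right second block of II (-0.42) and the left terminal block of II (-0.31). After each library was scaled by its own spread, the mean of both polymerases passed at the right second block of I (-0.42, limma adjusted p = 0.0024), the left terminal block of II (-0.29, limma adjusted p = 0.0027) and the right second block of II (-0.31, limma adjusted p = 0.033). The 2 mean interaction calls were lost without any of stn1-226 Pol delta 25 °C replicate 2, Pol epsilon 25 °C replicate 1, Pol delta 34 °C replicate 2 or Pol epsilon 34 °C replicate 1. None of these edgeR interaction calls, for Pol delta or for the mean, passed without the libraries labelled stn1-226 rif1 deletion.

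The temperature change of total ends differed between Pol delta and Pol epsilon in stn1-226 in 43 blocks of 50 kb, 20 with the higher value for Pol delta and 23 with the lower. With 2 libraries per group, no single library was tested as standing apart.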

How the results depend on the processing

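Of the values that answer a comparison, 183 kept their side of the threshold within the limits set and 89 moved, and none reversed; of the named features, 1713 kept their call, 489 fell below the threshold, 25 rose above it and 9 moved. Interaction counts here are those of fork direction in the mean of both polymerases, and 10 kb counts those of total ends in that mean. Fitting only the groups compared (4 residual degrees of freedom rather than 16) left 0 total-ends calls for Pol delta and 1 for the mean, 1, 0 and 0 fork direction calls for Pol delta, Pol epsilon and the mean, 0 interaction calls, 0 Pol delta steps and 1 block of 10 kb. Scaling total ends by the median bin left 0 calls for Pol delta, 0 for Pol epsilon and 0 at 10 kb, and moved the median Pol delta change to -0.05. With library type as a block, calls were 4 (total ends, Pol epsilon), 77, 4 and 88 (fork direction, Pol delta, Pol epsilon, mean), 8 (interaction), 258 and 102 (steps, Pol delta and mean) and 8 (10 kb). DESeq2 gave 1 (total ends, mean), 4 (interaction), 167 (Pol delta steps) and 5 (10 kb). Blocks of 25 kb gave 83, 0 and 22 fork direction calls, 5 bins on each side gave 0 Pol delta steps and 20 bins gave 143. Scaling by each library's spread, chosen after seeing the data, gave 3 and 2 fork direction calls (Pol delta, mean) and 4 and 2 steps (Pol delta, mean). Leaving out both stn1-226 25 °C replicate 2 libraries, also chosen after seeing the data, gave 0 and 1 total-ends calls, 7, 0 and 0 fork direction calls, 0 interaction calls, 0 Pol delta steps and 0 at 10 kb; without the wild type 25 °C replicate 2 pair the interaction gave 1. Leaving out the libraries labelled stn1-226 rif1 deletion, also chosen after seeing the data, gave 22 and 1 fork direction calls (Pol delta, mean), 0 interaction calls, 0 Pol delta steps and 1 block at 10 kb. The cause of these differences was not tested, beyond the fewer samples in the fits that left libraries out. Leaving out 1 library at a time gave 5 to 86, 0 to 2 and 0 to 7 fork direction calls (Pol delta, Pol epsilon, mean), 0 to 3 interaction calls, 0 to 79, 0 to 5 and 0 to 0 total-ends calls (Pol delta, Pol epsilon, mean), 0 to 0 total-ends interaction calls, 0 to 221 Pol delta steps, 0 to 0 steps for Pol epsilon, the mean and the interaction, 0 to 0 blocks of 10 kb (for Pol delta alone 0 to 232), and terminal differences of -0.3238 to -0.2256 (fork direction) and -0.2443 to -0.1308 (total ends). The right second block of chromosome I kept its Pol delta fork direction call in 18 of 18 alternatives, the left terminal block of I and the right second block of II in 16, the left terminal block of II in 15 and its neighbour in 12.

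With the replicate number as a block, calls were 35, 3 and 0 for total ends (Pol delta, Pol epsilon, mean), 39, 2 and 12 for fork direction, 122 Pol delta steps and 0 at 10 kb, and the terminal differences had exact permutation p of 0.125 (fork direction, the smallest of 16 arrangements) and 0.5 (total ends); the 10 kb calls at mat1 and tlh2 ended. The numbers did not pair the samples by the correlation of their deviations. With the numbers of stn1-226 25 °C crossed, total ends gave 49, 4 and 0 calls, fork direction 42, 2 and 15, Pol delta steps 103 and 10 kb blocks 2.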

Other observations

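Around the centromeres, which were not part of a comparison above, the 16 blocks of 50 kb had a median total-ends change of -0.10 for Pol delta and 0.06 for Pol epsilon in stn1-226, beside -0.08 and 0.13 in wild type. Of the 26 steps there, 21 were smaller at 34 °C for Pol delta, with a median change of -0.43 and 3 called, and 13 were smaller for Pol epsilon; over all 536 sites 433 (80.8%) and 149 were smaller.

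In replicate 1 libraries, 20 bins lie past the end of the assembly's chromosome II. They held 5.55 (Pol delta) and 8.15 (Pol epsilon) ends per median bin at 25 °C and 8.55 and 1.57 at 34 °C in stn1-226, each from 1 library and so without a replicate check.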
